A study of Mus musculus with 47 samples.

Results

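Germline and somatic isozymes of glycolysis were described in 10 RNA-seq libraries of mouse liver and spermatozoa. The members are 10 genes picked by name, 5 isozymes known for their expression in the male germline (Gapdhs, Pgk2, Ldhc, Aldoart1 and Pgam2) and the somatic counterpart of each (Gapdh, Pgk1, Ldha, Aldoa and Pgam1), and all 10 were found among the 23416 genes of the count files. The groups were Ctrl-F1 liver, KO-F1 liver, Ctrl-F1 spermatozoa, KO-F1 spermatozoa and KO-F2 spermatozoa, with 2 biological replicates each, from males of 8 to 12 weeks. The fathers of KO-F1 males were Scml2-KO males and those of Ctrl-F1 males were wild-type littermates of the knockouts, in both cases by intracytoplasmic injection of testicular sperm into BDF1 oocytes, and their strain is labelled BDF2. KO-F2 males, whose strain is labelled BDF3, came from F1 males of the Scml2-KO line housed with C57BL/6 females. Scml2 is X-linked, so every sequenced male carried the wild-type gene from his mother, and the count of Scml2 (0 in each liver library, 0 to 18 in each sperm library) checks no label. No Ctrl-F2 spermatozoa were analysed here, so generation, mother and mode of conception cannot be told apart in comparisons with KO-F2. The labels name a sequencing run for KO-F2 and for liver but none for F1 spermatozoa.

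Glycolysis splits glucose into pyruvate in the cytosol. Aldolase (Aldoa, Aldoart1) cleaves the 6-carbon sugar, glyceraldehyde-3-phosphate dehydrogenase (Gapdh, Gapdhs) and phosphoglycerate kinase (Pgk1, Pgk2) carry out the oxidation and the first ATP-forming step, phosphoglycerate mutase (Pgam1, Pgam2) moves the phosphate, and lactate dehydrogenase (Ldha, Ldhc) interconverts pyruvate and lactate. Male germ cells replace several of these enzymes by germline isozymes that are anchored in or enriched along the sperm flagellum, and mouse sperm motility is known to depend on Gapdhs, Pgk2 and Ldhc. Pgk2 and Aldoart1 are retrogenes without introns, and the X-linked Pgk1 is silenced at meiosis together with the sex chromosomes. Pgam2 is known both as the muscle-type mutase and as a sperm enzyme.

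The genes lie apart in the genome except for one pair. In GRCm38, Ldha (chr7:46845804-46855627) and Ldhc (chr7:46861263-46878147) are neighbours on the plus strand. Gapdhs lies at chr7:30729779-30743681 and Gapdh at chr6:125161852-125166467. Pgk2, a single exon, lies at chr17:40207018-40208609 and Pgk1 at chrX:106187100-106203699. Aldoart1, also a single exon, lies at chr4:72850583-72852634 and Aldoa at chr7:126795234-126800447. Pgam2 lies at chr11:5801637-5803796 and Pgam1 at chr19:41911871-41918665.

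How well the isozymes of a pair can be told apart by single-end reads of 75 bp is a matter of sequence. Over the aligned coding bases, germline and somatic isozymes were 71.6% identical for Gapdhs and Gapdh, 73.9% for Ldhc and Ldha, 74.8% for Pgam2 and Pgam1, 79.3% for Pgk2 and Pgk1 and 93.9% for Aldoart1 and Aldoa. Pgk2, Ldhc, Pgam2 and Gapdhs shared no 75-base stretch with their counterpart, whereas Aldoart1 and Aldoa shared 19. The following coding windows of 75 bases show this, each read from the GRCm38 gene sequence on the strand of the gene, with capitals at the bases where the isozymes of the pair differ. The Gapdhs window (chr7:30732205-30732279, minus strand) and the Gapdh window (chr6:125162566-125162640, minus strand) differ at 11 bases, and the Gapdh window was found at 17 other places of the genome.
Gapdhs: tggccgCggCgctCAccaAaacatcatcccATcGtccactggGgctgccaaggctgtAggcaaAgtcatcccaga
Gapdh: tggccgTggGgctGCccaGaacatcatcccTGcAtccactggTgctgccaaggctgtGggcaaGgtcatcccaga
The Pgk2 window (chr17:40208123-40208197, minus strand) and the Pgk1 window (chrX:106194698-106194772, plus strand) differ at 9 bases, and the Pgk1 window has 2 other exact matches in the genome.
Pgk2: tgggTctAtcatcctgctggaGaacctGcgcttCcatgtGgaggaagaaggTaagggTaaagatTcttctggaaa
Pgk1: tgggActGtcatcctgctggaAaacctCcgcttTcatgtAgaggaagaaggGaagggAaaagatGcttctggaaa
The Pgam2 window (chr11:5801753-5801827, minus strand) and the Pgam1 window (chr19:41917618-41917692, plus strand) differ at 9 bases, and the Pgam1 window has 2 other exact matches.
Pgam2: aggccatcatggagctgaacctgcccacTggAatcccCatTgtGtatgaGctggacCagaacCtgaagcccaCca
Pgam1: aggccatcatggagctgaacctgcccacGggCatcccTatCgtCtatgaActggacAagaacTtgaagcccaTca
The Ldhc window (chr7:46875714-46875788, plus strand) and the Ldha window (chr7:46851915-46851989, plus strand) differ at 13 bases and have no other match.
Ldhc: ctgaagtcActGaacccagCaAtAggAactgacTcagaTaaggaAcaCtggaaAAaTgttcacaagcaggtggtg
Ldha: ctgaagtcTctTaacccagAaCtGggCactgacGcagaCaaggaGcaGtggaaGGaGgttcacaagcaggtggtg
The window of Aldoart1 (chr4:72851946-72852020, minus strand) and that of Aldoa (chr7:126796676-126796750, minus strand) are identical, so a read from it has 2 places in the genome and was not counted for either gene.
Aldoart1 and Aldoa: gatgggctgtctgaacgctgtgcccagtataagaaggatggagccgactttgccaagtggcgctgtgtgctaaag

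The authors counted only reads with a single alignment, and the somatic isozymes were reached by that rule to very different degrees. Every 75-base stretch of the annotated transcripts was searched in the GRCm38 chromosomes for exact matches outside its own gene. All stretches of Gapdhs, Pgk2, Ldhc and Pgam2 had none, as did 99.6% of those of Aldoart1, 98.8% of Aldoa and 92.7% of Ldha. Of the stretches of Gapdh, by contrast, 19.1% were unique, of Pgam1 11.1% and of Pgk1 8.62%. The Gapdh stretch with the most copies (chr6:125162873-125162947, minus strand) had 48 other exact matches and is shown because none of its reads could be counted.
Gapdh: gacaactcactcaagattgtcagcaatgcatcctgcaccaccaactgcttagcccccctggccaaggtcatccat
Counts of Gapdh, Pgk1 and Pgam1 in these files therefore come from a small part of the transcript. Levels are given below per kilobase of exon and, where the choice matters, per kilobase of unique stretches, which assumes that reads fall evenly along a transcript and that only exact copies hinder alignment.

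**Figure D1:**
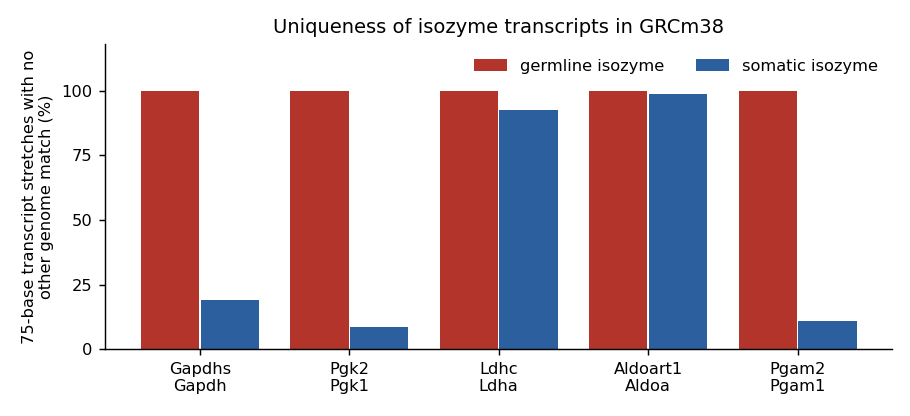
Share of 75-base stretches of each transcript set with no exact match elsewhere in GRCm38 (y axis, percent), for the germline (red) and somatic (blue) isozyme of each pair (x axis). The 5 germline isozymes stand at 99.6% or above, and Gapdh, Pgk1 and Pgam1 at 19.1%, 8.62% and 11.1%.

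Liver libraries held 11339729 to 14278900 counts, F1 sperm libraries 1503733 to 2778171 and KO-F2 sperm libraries 8384266 and 11462105. At 3 counts, the limit that a count of 0 allows, this is 0.210 to 0.265 CPM (counts scaled to a library of 1000000) in liver, 1.08 to 2.00 CPM in F1 and 0.262 and 0.358 CPM in KO-F2 spermatozoa. These limits cover counting error only. The ribosomal RNA gene Rn45s took 3.52% to 28.7% of the counts of a sperm library. Levels below are CPM after TMM normalization, computed within liver and within spermatozoa.

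In Ctrl-F1 spermatozoa the germline isozyme of the pair was the abundant one for the kinase, the mutase and lactate dehydrogenase. For aldolase Aldoa was more abundant than Aldoart1. Aldoart2, another aldolase known from testis and not a member, stood at 218 and 89.3 CPM. Pgk2 was counted 4017 and 3208 times in the 2 replicates, or 1743 and 2676 CPM. Ldhc stood at 939 and 513 CPM, Pgam2 at 791 and 531 CPM and Gapdhs at 708 and 445 CPM, whereas Aldoart1 stood at 115 and 117 CPM. Of the somatic isozymes, Aldoa stood at 367 and 342 CPM and Ldha at 302 and 183 CPM, Pgam1 at 23.4 and 32.5 CPM and Pgk1 at 8.25 and 10.0 CPM, and Gapdh had 0 and 1 counts, under the limit, of the small part of its reads that can be counted. Summed, the germline isozymes came to 4296 and 4283 CPM and the somatic isozymes to 701 and 568 CPM. Per kilobase of exon the order was Pgk2, Pgam2, Ldhc, Gapdhs, Aldoa, Ldha, Aldoart1, Pgam1 and Pgk1, with Gapdh left out, in which the replicates of Pgam2 and Ldhc, and those of Ldhc and Gapdhs, overlapped. Per kilobase of unique stretches Pgam1 (120 and 166 CPM per kilobase) moved up beside Ldha (170 and 103) and Pgk1 (54.6 and 66.3) beside Aldoart1 (58.1 and 59.3), and each of these neighbours overlapped.

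The liver showed the reverse. Pgk2 and Ldhc had 0 counts in all 4 liver libraries. Pgam2 had at most 6 counts, with 6 and 5 in the controls and 3 and 1 in KO-F1. Gapdhs had 15 and 14 counts in the controls and 8 and 10 in KO-F1, and Aldoart1 had 17 and 27 in the controls and 12 and 6 in KO-F1. Ldha, by contrast, stood at 611 and 460 CPM in Ctrl-F1 and 452 and 622 CPM in KO-F1 liver. Pgk1 stood at 152 and 163 CPM in Ctrl-F1 liver, Aldoa at 106 and 120 CPM and Pgam1 at 36.0 and 37.8 CPM. Gapdh, an enzyme that every cell uses, had only 34 and 30 counts in the controls and 42 and 39 in KO-F1, or 2.02 to 3.59 CPM over the 4 libraries. The enolase Eno1, with 36.2% of its stretches unique, had 0 counts in all 4. These counts lay below those of Pgk1 and Pgam1, of whose stretches a smaller share is unique, so the share of unique stretches does not order them, and the reason for the low counts of Gapdh was not tested. They are not taken here as its expression. The germline isozymes of liver summed to 1.57 to 3.10 CPM and the somatic isozymes to 739 to 920 CPM.

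Ctrl-F1 spermatozoa and Ctrl-F1 liver were compared with edgeR's quasi-likelihood test, in which a gene was called when it differed 2-fold or more with p under 0.01 after Benjamini-Hochberg adjustment over all genes tested. All 5 germline isozymes were called higher in spermatozoa, where 18.6% of the 13204 genes tested were called higher. Pgk2 was at least 7737-fold and Ldhc at least 1912-fold higher, taking 3 counts per library as the level in liver. The log2 fold change was 10.73 for Pgam2 (SE 0.48), 9.17 for Gapdhs (SE 0.47) and 6.27 for Aldoart1 (SE 0.39), each with an adjusted p of 0.0012. Of the somatic isozymes, Pgk1 was called lower in spermatozoa (log2 fold change -4.10, SE 0.31, adjusted p = 0.0012), as were 11.6% of genes, and Aldoa was called higher (1.68, SE 0.25, adjusted p = 0.0059). Ldha (-1.11, adjusted p = 0.053), Pgam1 (-0.38, adjusted p = 0.400) and Gapdh were not called. Without either of the Ctrl-F1 liver replicates Aldoa was no longer called, nor with the replicate number as a block (adjusted p = 0.017 by edgeR). The kits differed between the tissues, mRNA libraries for liver and amplified cDNA of total RNA for spermatozoa, so kit and tissue cannot be told apart.

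Within a library the ratio of a germline isozyme to its counterpart does not depend on how libraries are scaled. It was computed from counts per kilobase of exon, with 0.5 added to each count, and bounds were set at 3 counts where a gene had no more than that. In Ctrl-F1 spermatozoa Pgk2 exceeded Pgk1 236-fold and 294-fold in the 2 replicates, a mean log2 ratio of 8.04 ± 0.22 (SD, n = 2). Pgam2 exceeded Pgam1 67.7-fold and 32.6-fold (5.55 ± 0.74), and Ldhc exceeded Ldha 4.09-fold and 3.69-fold (1.96 ± 0.10). Gapdhs had 1632 and 534 counts beside the 0 and 1 of Gapdh, and no fold is given, since the counts of Gapdh are not taken as its expression. Among the pairs aldolase was the exception, since Aldoart1 was at 0.278 and 0.304 of Aldoa (-1.78 ± 0.09). Aldoart2 is not part of this ratio. Per kilobase of unique stretches the mean ratios of Pgk2 to Pgk1 and of Pgam2 to Pgam1 in Ctrl-F1 spermatozoa came down to 22.9-fold and 5.47-fold.

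In liver the ratios lay on the other side. Pgk1 exceeded Pgk2 at least 623-fold and 705-fold in the control livers and at least 436-fold and 391-fold in those of KO-F1. Ldha exceeded Ldhc at least 1405-fold in each liver library, Aldoa exceeded Aldoart1 by 95.5-fold and 72.7-fold in the controls and 144-fold and 262-fold in KO-F1, and Pgam1 exceeded Pgam2 by 38.5-fold and 50.5-fold in the controls and at least 53.6-fold in KO-F1.

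**Figure D2:**
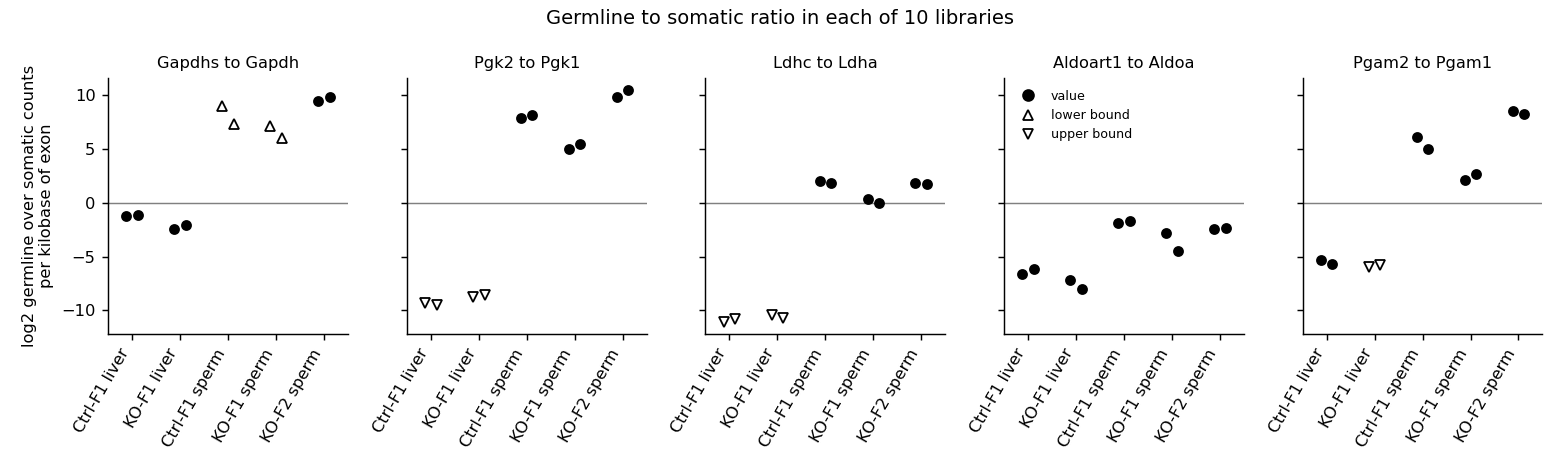
Log2 ratio of germline over somatic counts per kilobase of exon (y axis) in each of the 10 libraries, by group (x axis) and pair (panels). Filled circles are values and open triangles are bounds at 3 counts, and the Gapdhs to Gapdh panel compares counts, which are not taken as the expression of Gapdh. The KO-F1 spermatozoa lie below both other sperm groups in the 4 pairs without bounds, as in Pgk2 to Pgk1, where the means are 5.27 in KO-F1, 8.04 in Ctrl-F1 and 10.15 in KO-F2.

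Whether the offspring of Scml2-KO males differ in these transcripts was asked first in F1 spermatozoa. All 5 germline isozymes were lower in both KO-F1 replicates than in both Ctrl-F1 replicates on the TMM scale. Pgk2 stood at 616 and 771 CPM in KO-F1 against 1743 and 2676 CPM in Ctrl-F1. Gapdhs stood at 126 and 83.5 CPM against 708 and 445 CPM. Ldhc stood at 140 and 183 CPM against 939 and 513 CPM. In none of these genes did the groups overlap, and the same held for Pgam2 (173 and 216 CPM against 791 and 531 CPM) and Aldoart1 (46.9 and 20.0 CPM against 115 and 117 CPM). Of all genes tested, 25.8% had both KO-F1 libraries below both Ctrl-F1 libraries. In sum the germline isozymes came to 1101 and 1274 CPM in KO-F1 spermatozoa.

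In this comparison edgeR called 0 of the 9 members tested and 0 of the 10785 genes tested, 0% of the genes. An unadjusted p under 0.05 was found for 2105 genes, among them all 5 germline isozymes. The log2 fold change was -2.40 for Gapdhs (SE 0.45), -2.11 for Ldhc (SE 0.46), -1.73 for Aldoart1 (SE 0.52), -1.71 for Pgam2 (SE 0.42) and -1.60 for Pgk2 (SE 0.43), with adjusted p between 0.140 and 0.153 by edgeR. That of Aldoart1 was -2.47 without KO-F1 replicate 1 and -1.22 without KO-F1 replicate 2. DESeq2, the tool the authors used, called Gapdhs, Ldhc, Pgk2 and Pgam2 lower with adjusted p of 5.2e-06, 5.4e-05, 3.7e-04 and 5.0e-04, where it called 265 of 16807 genes lower, 1.58% of them, and it gave Aldoart1 an adjusted p of 0.033. Without edgeR's filter, where 0.286% of genes were called lower, and also with a filter of 10 counts in every library, where 1.89% were, Gapdhs and Ldhc were called lower.

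The somatic isozymes did not go with them. Pgk1 stood at 21.6 and 19.1 CPM in KO-F1 against 8.25 and 10.0 CPM in Ctrl-F1 spermatozoa, a log2 fold change of 1.22 (SE 0.75, adjusted p = 0.423 by edgeR). Pgam1 stood at 79.9 and 68.8 CPM against 23.4 and 32.5 CPM, a log2 fold change of 1.48 (SE 0.48, adjusted p = 0.164 by edgeR and 0.070 by DESeq2). Both KO-F1 replicates of these genes were above both Ctrl-F1 replicates, as for 28.3% of all genes, and neither gene was called. Ldha stood at 147 and 248 CPM against 302 and 183 CPM and Aldoa at 287 and 391 CPM against 367 and 342 CPM, and for both genes the groups overlapped. Gapdh had 0 counts in both KO-F1 libraries and did not pass edgeR's filter. With no filter its log2 fold change was -2.93 (SE 4.04), and by DESeq2 it was -2.54 (SE 4.95). Neither fit called it.

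All 4 ratios of germline to somatic isozyme that could be computed without bounds were smaller in KO-F1 spermatozoa than in the controls. Pgk2 exceeded Pgk1 32.4-fold and 45.7-fold in the KO-F1 replicates, and the mean log2 ratio was lower than in Ctrl-F1 by 2.78, a ratio 6.85-fold lower. Pgam2 exceeded Pgam1 4.36-fold and 6.34-fold, and the ratio was 8.93-fold lower than in Ctrl-F1. Ldhc was at 1.26 and 0.972 of Ldha, so that the 2 isozymes were level, and this ratio was 3.51-fold lower. Aldoart1 was at 0.146 and 0.0459 of Aldoa, a ratio 3.56-fold lower, in which the KO-F1 replicates differed from each other most (SD 1.18 on the log2 scale). The difference in this ratio was -1.83 on the log2 scale, -0.997 without KO-F1 replicate 2 and -2.66 without KO-F1 replicate 1. Gapdhs had 455 and 205 counts beside 0 of Gapdh, which allows no comparison with Ctrl-F1. In each of the 4 ratios the groups did not overlap, and the exact two-sided permutation test gave p = 0.333, the smallest that 2 samples against 2 allow. Per kilobase of unique stretches Pgam2 was below Pgam1 in KO-F1 spermatozoa, at 0.508 and 0.739 of it, and Pgk2 still exceeded Pgk1 2.81-fold and 3.97-fold.

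**Figure D3:**
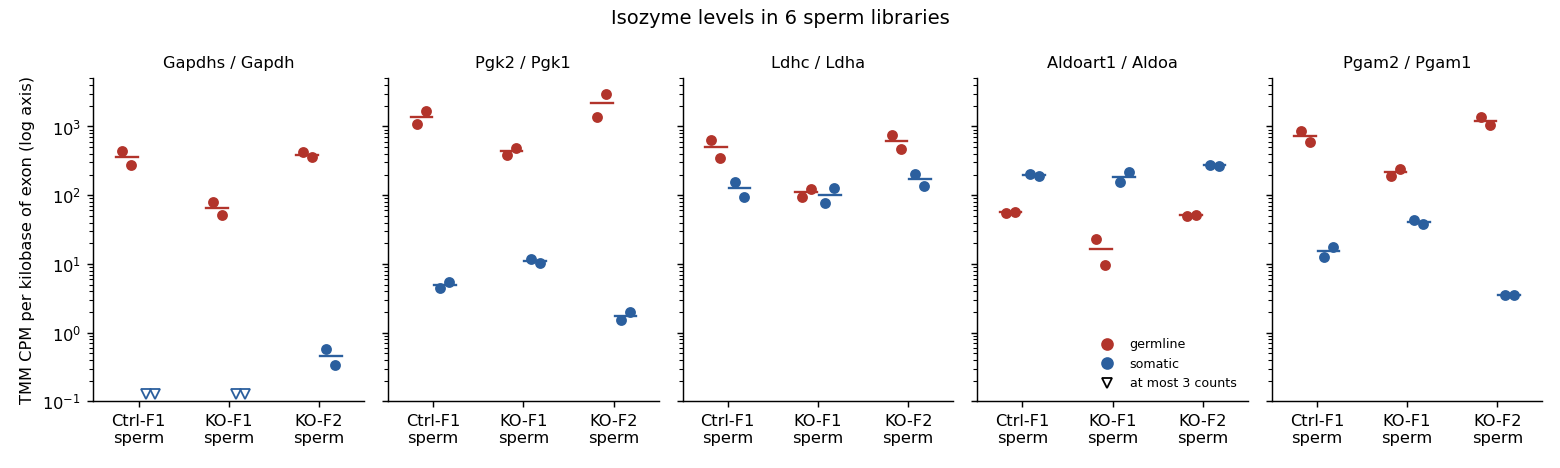
TMM-normalized CPM per kilobase of exon (y axis, log axis) of the germline (red) and somatic (blue) isozyme of each pair in the 2 replicates of each sperm group, with horizontal lines at the mean. Open triangles mark libraries with at most 3 counts, drawn at the bottom without a value. Pgk2 has means of 1388, 436 and 2165 in Ctrl-F1, KO-F1 and KO-F2, and Pgam1 has means of 15.3, 40.6 and 3.55.

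Other transcripts of late spermatogenesis also had their lowest sum in KO-F1. A list of 25 such genes (protamines, transition proteins, outer dense fibre and flagellar genes) made up 14.1% and 12.5% of a Ctrl-F1 library, 6.20% and 4.68% of a KO-F1 library and 16.3% and 16.0% of a KO-F2 library of spermatozoa. Between KO-F1 and Ctrl-F1 spermatozoa, 22 of its 24 tested genes had a negative log2 fold change, with a median of -1.80, beside a median of -1.73 for the germline isozymes and 0.02 for all genes tested. Prm2, a protamine, stood at 8336 and 7223 CPM in KO-F1 against 48075 and 31606 CPM in Ctrl-F1 spermatozoa, and Smcp and Odf1 of the midpiece and the outer dense fibres were lower as well, at 14482 and 13927 CPM against 28161 and 39673 CPM and at 13959 and 9249 CPM against 27038 and 49879 CPM. In KO-F2 spermatozoa Prm2 stood at 53131 and 42492 CPM, Smcp at 27775 and 32520 CPM and Odf1 at 28234 and 25409 CPM, each overlapping with Ctrl-F1. Over the whole list 14 of 25 tested genes had a positive and 11 a negative log2 fold change in KO-F2 against Ctrl-F1 spermatozoa, with a median of 0.21 beside 0.070 for all genes. Prm1, at 23879 and 23584 CPM, was above both controls (15409 and 9122 CPM) and Prm3, at 894 and 1135 CPM, below both (1989 and 1939 CPM), 2 genes chosen after their values were seen. In bulk RNA, fewer cells of a type and less RNA per cell cannot be told apart. When libraries were scaled to this list instead, the median of all genes moved to 1.75, and the log2 fold changes of the germline isozymes became -0.61 for Gapdhs, -0.33 for Ldhc, 0.070 for Pgk2, 0.057 for Pgam2 and 0.020 for Aldoart1. On that scale the somatic isozymes stood higher in KO-F1, by 3.19 for Pgam1, 2.94 for Pgk1, 1.72 for Aldoa and 1.53 for Ldha, with adjusted p between 0.0145 and 0.0457 by edgeR, and none was called. Since the median change of this list was close to that of the isozymes, this scaling brings them near 0 by construction.

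KO-F2 spermatozoa were compared with the same Ctrl-F1 libraries to see whether the difference was carried to the next generation. Gapdhs stood at 679 and 575 CPM, Ldhc at 1106 and 688 CPM, Pgk2 at 2201 and 4691 CPM, Pgam2 at 1243 and 963 CPM and Aldoart1 at 104 and 106 CPM in KO-F2. The replicates of Gapdhs, Ldhc and Pgk2 overlapped those of Ctrl-F1, Pgam2 was above both of them, as were 28.9% of genes, and Aldoart1 below. edgeR called 0 of the members and 0% of 13149 genes, with 1960 genes at an unadjusted p under 0.05, and DESeq2 called 277 genes (1.48%) and no member. Log2 fold changes of the germline isozymes lay between -0.21 for Aldoart1 (SE 0.29) and 0.66 for Pgam2 (SE 0.35).

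The somatic isozymes split. Pgam1 stood at 6.54 and 6.48 CPM in KO-F2 against 23.4 and 32.5 CPM in Ctrl-F1 spermatozoa, a log2 fold change of -2.16 (SE 0.52, adjusted p = 0.203 by edgeR and 0.030 by DESeq2). Pgk1 stood at 2.75 and 3.68 CPM against 8.25 and 10.0 CPM, a log2 fold change of -1.56 (SE 0.78, adjusted p = 0.425 by edgeR). For both genes the KO-F2 replicates were below both Ctrl-F1 replicates, as for 19.2% of all genes, and neither was called. Ldha (394 and 263 CPM) and Aldoa (510 and 483 CPM) differed from Ctrl-F1 by 0.36 and 0.41 on the log2 scale, with SEs of 0.38 and 0.28, and were not called. Both KO-F2 replicates of Aldoa were above both Ctrl-F1 replicates, and those of Ldha overlapped. Gapdh was at 9 and 4 counts.

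With the low somatic counts, Pgk2 exceeded Pgk1 903-fold and 1436-fold and Pgam2 exceeded Pgam1 382-fold and 298-fold in KO-F2 spermatozoa, ratios 4.32-fold and 7.18-fold higher than in Ctrl-F1 spermatozoa. Gapdhs had 7171 and 4531 counts beside the 9 and 4 of Gapdh. Per kilobase of unique stretches the mean ratios in KO-F2 were 98.8-fold for Pgk2 to Pgk1 and 39.3-fold for Pgam2 to Pgam1. Ldhc exceeded Ldha 3.70-fold and 3.45-fold, which overlapped with Ctrl-F1 (difference of -0.12 on the log2 scale, exact two-sided permutation p = 0.667). Aldoart1 was at 0.181 and 0.195 of Aldoa, lower than in Ctrl-F1 by 0.63 on the log2 scale. The differences of Pgk2 to Pgk1, Pgam2 to Pgam1 and Aldoart1 to Aldoa had no overlap and an exact permutation p of 0.333, the smallest possible.

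The difference between generations was tested directly, KO-F2 against KO-F1 spermatozoa, which share no control. Gapdhs rose by 2.59 on the log2 scale (SE 0.36, adjusted p = 0.0096 by edgeR), from 126 and 83.5 CPM in KO-F1 to 679 and 575 CPM in KO-F2. Pgam2 rose by 2.52 (SE 0.36, adjusted p = 0.0097), from 173 and 216 CPM to 1243 and 963 CPM. Pgam1 fell by 3.50 (SE 0.37, adjusted p = 0.0091), from 79.9 and 68.8 CPM to 6.54 and 6.48 CPM. edgeR called 2.11% of 13517 genes higher and 0.200% lower in KO-F2. Ldhc (2.49, adjusted p = 0.011), Pgk2 (2.31, adjusted p = 0.018), Aldoart1 (1.65, adjusted p = 0.039) and Pgk1 (-2.66, SE 0.55, adjusted p = 0.021) did not pass the edgeR threshold, while DESeq2 called all 5 germline isozymes higher and Pgk1 and Pgam1 lower, where it called 7.48% of genes higher and 3.52% lower. Leaving out 1 library moved the log2 fold change of Aldoart1 between 1.13 and 2.36. Both KO-F2 libraries were above both KO-F1 libraries for 37.2% of all genes and below them for 28.7%. Ldha and Aldoa had log2 fold changes of 0.75 and 0.56 and were called by neither tool. Gapdh, with 0 counts in both KO-F1 libraries and 9 and 4 in KO-F2, did not pass edgeR's filter. With no filter its log2 fold change was 5.12 (SE 3.47, adjusted p = 0.323 by edgeR), and it was not called.

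Other settings of edgeR called more of them, and more genes. Ldhc was called higher with DESeq2's size factors (2.89% of genes called higher), thinning (4.83%), the replicate block (4.92%), the bias-adjusted fit (7.99%), no filter (9.84%) and 10 counts in every library (14.7%). Pgk2 was called higher in the last 4 of these and Aldoart1 in the last 2. Pgk1 was called lower with the bias-adjusted fit (2.92% of genes called lower), no filter (3.80%) and 10 counts in every library (5.66%). The calls of Gapdhs and Pgam2 depended on scale, on the samples in the model and on 1 library. With all 3 sperm groups in 1 model Gapdhs was not called (log2 fold change 2.41, adjusted p = 0.0104 by edgeR). Without KO-F2 replicate 1, Gapdhs (adjusted p = 0.0117 by edgeR) and Pgam2 (0.0153) were not called and Pgk2 was, as were 1.64% of genes in the same direction, and Pgam1 stayed called in each of the 4 fits that left out a library. Scaled to the late spermatogenesis list, under which the median of all genes moved from 0.13 to -2.18, Gapdhs, Pgk2, Ldhc, Pgam2 and Aldoart1 differed by 0.27, 0.06, 0.16, 0.20 and -0.67 and none was called, while Pgam1 (-5.81), Pgk1 (-4.95), Aldoa (-1.74) and Ldha (-1.57) were called lower, as were 38.0% of all genes. With library totals computed without Rn45s, a setting that also used no TMM factors, only Pgk1 and Pgam1 of the members were called. Both were lower, as were 3.16% of genes. Leaving out Rn45s and leaving out TMM were not tested apart. The ratios, which need no scaling, were higher in KO-F2 than in KO-F1 spermatozoa for all 4 pairs, 29.6-fold for Pgk2 to Pgk1, 64.1-fold for Pgam2 to Pgam1, 3.23-fold for Ldhc to Ldha and 2.30-fold for Aldoart1 to Aldoa, with no overlap and an exact permutation p of 0.333 each. The difference in Aldoart1 to Aldoa was 1.20 on the log2 scale, 0.37 without KO-F1 replicate 2 and 2.04 without KO-F1 replicate 1.

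**Figure D4:**
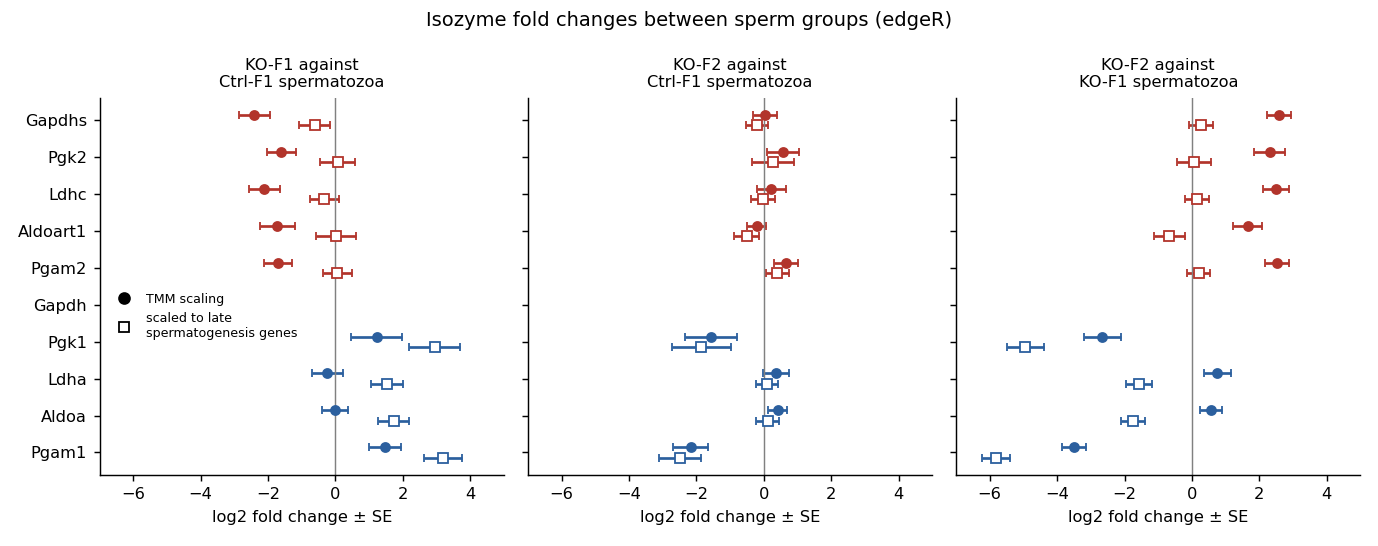
Log2 fold change ± SE (x axis) of each member (y axis, germline in red, somatic in blue) in the 3 comparisons of spermatozoa by edgeR, with TMM scaling (filled circles) and scaled to the late spermatogenesis list (open squares). Gapdh was not tested. With TMM the germline isozymes lie between -2.40 and -1.60 in KO-F1 against Ctrl-F1, and with the other scaling between -0.61 and 0.070.

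In the liver of the same generation no member was called by edgeR or DESeq2. edgeR called 0% of 11505 genes, with 1083 genes at an unadjusted p under 0.05, and DESeq2 20 genes (0.129%). Pgk1 stood at 122 and 124 CPM in KO-F1 against 152 and 163 CPM in Ctrl-F1 liver, a log2 fold change of -0.35 (SE 0.15, adjusted p = 0.516 by edgeR), the only member with an unadjusted p under 0.05. Pgam1 stood at 30.6 and 30.0 CPM against 36.0 and 37.8 CPM (-0.28, SE 0.15), and Aldoa at 130 and 140 CPM against 106 and 120 CPM (0.27, SE 0.15). Both KO-F1 libraries were below both controls for 21.4% of all genes and above them for 20.2%. Ldha differed by 0.01 (SE 0.22) with overlapping groups. Gapdh had a log2 fold change of 0.66 (SE 0.40), Gapdhs of -0.35 (SE 0.60) and Aldoart1 of -0.96 (SE 0.60), on the low counts given above and with no overlap of the groups. Pgk2 and Ldhc, at 0 counts, were not tested, and Pgam2 did not pass edgeR's filter and had a log2 fold change of -1.16 by DESeq2 (SE 1.78).

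The other enzymes of the pathway were taken from a list of 24 genes, of which 23 are in the files. Against liver, 9 of 20 tested were called higher in Ctrl-F1 spermatozoa and 3 lower, beside 18.6% and 11.6% of all genes. Hk1, the hexokinase that spermatozoa carry in a germline form, was counted 12 and 23 times in the control livers against 5551 and 3551 times in Ctrl-F1 spermatozoa (log2 fold change 11.13), and Pkm, the pyruvate kinase of most tissues, and Ldhb followed with 6.35 and 6.83. Aldoart2 and Ldhal6b, which like the members are known from testis, had 0 counts in the Ctrl-F1 livers and were at least 333-fold and at least 553-fold higher in Ctrl-F1 spermatozoa. Pklr, the pyruvate kinase of liver and red blood cells, was at least 77.0-fold higher in liver. Of the gluconeogenesis genes, Pck1 was at least 1398-fold higher in liver, Pcx and Fbp1 were called lower in spermatozoa (-4.47 and -2.77), and G6pc3 was called higher (4.23).

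Between KO-F1 and Ctrl-F1 spermatozoa edgeR called none of the 17 tested glycolysis genes, 6 of which had a positive and 11 a negative log2 fold change, with a median of -0.43. The smallest p-values were those of Ldhd, Hk1 and Ldhb. Hk1 stood at 813 and 916 CPM in KO-F1 against 2409 and 2962 CPM in Ctrl-F1 (-1.57, adjusted p = 0.140 by edgeR), on the side of the germline isozymes. Ldhb, the subunit of lactate dehydrogenase in oxidative tissues, stood at 470 and 384 CPM against 165 and 164 CPM (1.44, adjusted p = 0.140), on the side of Pgk1 and Pgam1, and 81.7% of its stretches were unique. Ldhd, the mitochondrial D-lactate dehydrogenase, stood at 203 and 139 CPM against 54.2 and 60.1 CPM (1.64, adjusted p = 0.140). DESeq2 called Ldhd and Ldhb higher, as it did 0.744% of genes, and Hk1 and Ldhal6b lower. In KO-F2 against Ctrl-F1 spermatozoa none of 18 was called, with Ldhb at -1.28 and Tpi1 at 1.33 among those with the smallest p. Between KO-F2 and KO-F1 spermatozoa Ldhb was called lower (-2.57, adjusted p = 0.0091 by edgeR), at 77.9 and 64.4 CPM in KO-F2, while Aldoart2 (2.57, adjusted p = 0.0101) and Tpi1 (1.96, adjusted p = 0.0149) did not pass the edgeR threshold.

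Genes that bring sugar and lactate across membranes and pyruvate into mitochondria were described alongside, 18 in all. In Ctrl-F1 spermatozoa Slc2a3, the high-affinity glucose transporter, stood at 172 and 88.4 CPM, against 0 and 4 counts in Ctrl-F1 liver, and Slc16a3, a monocarboxylate transporter, at 37.3 and 30.0 CPM against 4 and 3 counts. Emb, a chaperone of monocarboxylate transporters, was at least 622-fold higher in spermatozoa than in liver, and the hepatic glucose transporter Slc2a2 at least 121-fold higher in liver. Pdhb and Pdha1 of pyruvate dehydrogenase were called lower in spermatozoa (-2.97 and -1.55), and 6 of 17 tested genes were called higher, beside 18.6% of all genes. In KO-F1 against Ctrl-F1 spermatozoa none of 16 was called by edgeR, 12 of them with a negative log2 fold change, and Slc2a3 (-2.31), the fructose transporter Slc2a5 (-2.25) and the testis subunit Pdha2 (-3.32) had the smallest p. DESeq2 called Slc2a5 and Slc2a3 lower. In KO-F2 against Ctrl-F1 spermatozoa Slc16a1 (-1.72), Emb (-2.35) and Mpc1 (-1.02) had the smallest p, none was called by edgeR, and DESeq2 called Slc16a1 and Emb lower, as it did 0.685% of genes. Between KO-F2 and KO-F1 spermatozoa Gpd2, the mitochondrial glycerol-3-phosphate dehydrogenase, was called higher (2.56, adjusted p = 0.0098 by edgeR), and Pdha2 and Slc2a3 had log2 fold changes of 3.10 and 2.79 without being called by edgeR. Of the gluconeogenesis genes, Fbp1 stood at 20.0 and 49.3 CPM in KO-F1, against 175 and 136 CPM in Ctrl-F1 and 254 and 143 CPM in KO-F2 spermatozoa, and DESeq2 alone called it in KO-F1 against Ctrl-F1, as lower.

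Markers of other cells were summed in the same libraries, since most somatic isozymes are made by many cells. Epididymal epithelium markers summed to 21472 and 8536 CPM in Ctrl-F1, 8368 and 11635 CPM in KO-F1 and 3778 and 1945 CPM in KO-F2 spermatozoa. The sums were lowest in KO-F2, where Pgk1 and Pgam1 were lowest, while Ctrl-F1 and KO-F1 overlapped. Most of each sum was the secreted Crisp1, at 19227 and 6835 CPM in Ctrl-F1 and 3101 and 1342 CPM in KO-F2. The list did not move as one in KO-F2. Crisp1 and Adam7 were below both Ctrl-F1 libraries, but Cst8 (124 and 102 CPM) was above both. Lcn9 was also above both, at 16.3 and 42.5 CPM against 3.04 and 10.0 CPM. Of 12 markers tested between KO-F1 and Ctrl-F1, 5 had a positive and 7 a negative log2 fold change, with a median of -0.36, and Spint4 was at 0 in every sperm library. Adam7 stood at 1621 and 1029 CPM in Ctrl-F1, 587 and 1087 CPM in KO-F1 and 331 and 196 CPM in KO-F2 spermatozoa, so that Ctrl-F1 and KO-F1 overlapped. The keratins Krt18 and Krt8 were higher in both KO-F1 libraries than in both controls, as were Pgk1, Pgam1 and 28.3% of all genes. Cst8, of the same list, was lower in both, at 29.4 and 19.1 CPM against 64.7 and 71.7 CPM. Krt8, Cst8 and Lcn9 were named after their values were seen. Krt8 stood at 26.0 and 57.6 CPM in Ctrl-F1, 125 and 83.1 CPM in KO-F1 and 25.4 and 33.5 CPM in KO-F2 spermatozoa. Krt18 stood at 87.7 and 59.2 CPM in Ctrl-F1, 248 and 149 CPM in KO-F1 and 69.7 and 78.6 CPM in KO-F2 spermatozoa, above both other groups in KO-F1. Leukocyte markers, led by Lyz2 and Cd74, summed to 250 and 808 CPM in Ctrl-F1, 223 and 378 CPM in KO-F1 and 4010 and 5288 CPM in KO-F2 spermatozoa, highest where Pgk1 and Pgam1 were lowest. The red blood cell gene Alas2 stood at 457 CPM in KO-F2 replicate 2 and at no more than 23.8 CPM in the other sperm libraries. The part of these cells in the somatic isozymes was not tested. Hepatocyte markers had 0 to 13 counts in each sperm library. Markers of smooth and skeletal muscle, of interest beside Pgam2, summed to 52.5 and 120 CPM in Ctrl-F1, 61.1 and 116 CPM in KO-F1 and 41.4 and 63.2 CPM in KO-F2 spermatozoa, below Pgam2 in every library, and were led by Des, Tagln and Acta2, which smooth muscle also makes.

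**Figure D5:**
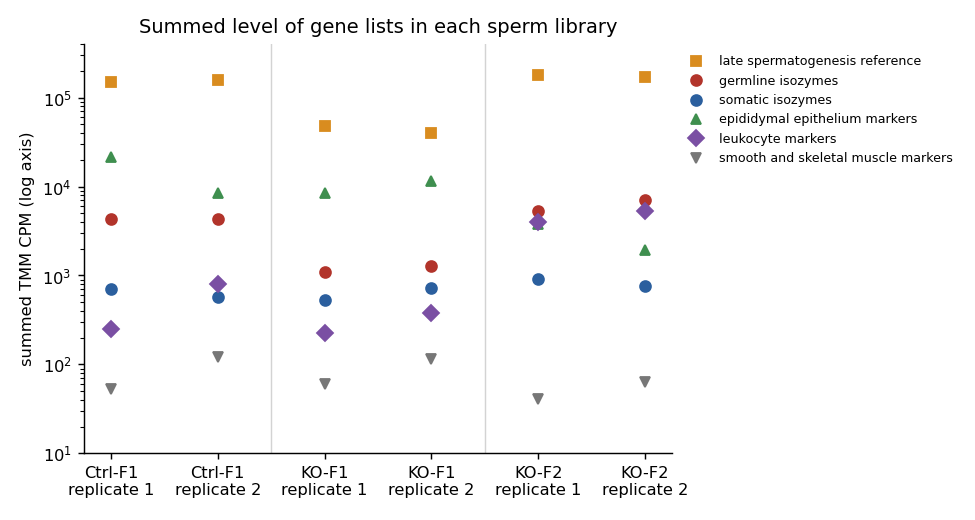
Summed TMM-normalized CPM (y axis, log axis) of the germline and somatic isozymes and of marker lists in each of the 6 sperm libraries (x axis). The germline isozymes go from 4296 and 4283 in Ctrl-F1 to 1101 and 1274 in KO-F1 and 5334 and 7024 in KO-F2. By group, the sum of the late spermatogenesis list is likewise lowest in KO-F1 and highest in KO-F2. Within each group the libraries rank the opposite way in these sums. The somatic sum, between 535 and 913, is mostly Ldha and Aldoa and does not show Pgk1 and Pgam1, which have few unique stretches.

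The pattern of the 5 germline isozymes over the 6 sperm libraries was also set beside that of all other genes with at least 10 counts in each, by Pearson's correlation of log2(CPM + 1) with the mean of the isozymes. This is a description over 6 libraries that share their group differences. Among 6218 genes the closest were Agtpbp1, Mapk3, Oxct2b, Creb3l4 and the lactate transporter Slc16a3 (r between 0.996 and 0.998). Slc16a3 stood at 13.6 and 11.8 CPM in KO-F1 and at 36.8 and 40.1 CPM in KO-F2 spermatozoa. The isozymes, each of which is part of that mean, ranged from 0.897 for Pgk2, which 13.1% of genes exceeded, to 0.988 for Gapdhs. Ldha and Aldoa had values of 0.602 and 0.616, and Pgk1 and Pgam1 of -0.900 and -0.883.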

How the data were processed

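RNA was sequenced from liver and from swim-up motile spermatozoa of the cauda epididymis. According to their methods and processing notes, the authors used HISAT2 2.1.0 to align the 75 bp single-end reads to GRCm38 (mm10), counted uniquely aligned reads per gene with featureCounts, and deposited raw counts, 1 file per library. The annotation and the strand setting are not given in the sources used here. Each file lists 23420 lines, and 4 lines of 2 repeated symbols were left out. Liver libraries came from mRNA with a stranded kit and sperm libraries from PCR-amplified cDNA, whose reads are not independent molecules, so limits and intervals cover counting error only.

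Counts were tested with edgeR 4.0.16 in R 4.3.3 (TMM, filterByExpr with a minimum count of 10 and a minimum total count of 15, quasi-likelihood F test), and p-values were adjusted by Benjamini-Hochberg over all genes tested. Only the 2 groups compared entered a fit. A gene was called when it differed 2-fold or more with an adjusted p under 0.01, the thresholds of the study. DESeq2 1.42.0 was the main alternative. The model script was tested on simulated data. Ratios were taken per library from counts plus 0.5 and compared with exact two-sided permutation tests, which cannot go below p = 0.333 with 2 against 2. Gene models, coordinates and sequences are RefSeq's on GRCm38. Exon length is the union of a gene's exons. Uniqueness was computed from exact matches of 75-base stretches.

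The members, gene lists and tests were chosen with earlier results of these data known. All 10 members are named. Of the pathway lists, genes called between sperm groups, up to 3 per direction against liver and the 3 with the smallest p per comparison of spermatozoa are named, of marker lists up to 3 with the highest mean count, and 5 genes by likeness. Some genes that this rule names are not reported here. Other alternatives were DESeq2's size factors, scaling to the late spermatogenesis list, library totals without Rn45s, edgeR's bias-adjusted quasi-likelihood fit, other filters, thinning to the smallest library, the replicate number as a block, all 3 sperm groups in 1 model, leaving out each library, and, chosen after seeing the data, ratios per kilobase of unique stretches. Library totals without Rn45s were used with no TMM factors. The other 37 samples of the series (ChIP-seq and embryos) were not analysed here.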

Additional observations from a re-analysis of the deposited data

Results flagged for a closer look

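Gapdhs, Pgam2 and Pgam1 differed between the generations by a test of that difference. Between KO-F2 and KO-F1 spermatozoa, edgeR's quasi-likelihood test gave log2 fold changes of 2.59 for Gapdhs, 2.52 for Pgam2 and -3.50 for Pgam1, with adjusted p of 0.0096, 0.0097 and 0.0091, where 2.11% of genes were called higher and 0.200% lower. The groups did not overlap, as for 37.2% of all genes with KO-F2 above and 28.7% with KO-F2 below. Without KO-F2 replicate 1 Gapdhs and Pgam2 were not called. Nor were they with library totals without Rn45s and no TMM factors (adjusted p = 0.0112 and 0.0132 by edgeR). With all 3 sperm groups in 1 model Gapdhs was not called (adjusted p = 0.0104 by edgeR). Scaled to the late spermatogenesis list Gapdhs and Pgam2 differed by 0.27 and 0.20. Generation, mother and mode of conception cannot be told apart in this comparison.

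Pgk1 and Pgam1 lay on opposite sides of the control in the 2 tissues of KO-F1 males. Pgk1 had a log2 fold change of -0.35 in liver, where both KO-F1 libraries were below both Ctrl-F1 libraries, and of 1.22 in spermatozoa, where both were above. Pgam1 had -0.28 in liver and 1.48 in spermatozoa, likewise with no overlap. Of all genes 21.4% were below in liver and 28.3% above in spermatozoa in this way. Neither gene was called in either tissue, with adjusted p by edgeR of 0.516 and 0.423 for Pgk1 and of 0.582 and 0.164 for Pgam1. The difference between the tissues was not tested. With 11.1% of the stretches of Pgam1 and 8.62% of those of Pgk1 unique, both values rest on a small part of the transcript.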

How the results depend on the processing

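The germline to somatic ratio does not depend on scaling, and where its groups did not overlap leaving out a library could not turn its sign. Of the fold changes of the members recomputed by another setting with all libraries, 342 kept direction and side of the threshold, 29 passed it only there, 6 passed it only in the result reported above and 22 turned in sign. With 1 library left out these were 150, 9, 4 and 11. Numbers of genes called moved with the test and filter. In liver DESeq2 called 20 genes, no filter gave 25, 10 counts in every library 1, the replicate block 2, thinning 1, and leaving out a library 4 to 107. In KO-F1 against Ctrl-F1 spermatozoa DESeq2 called 390, no filter gave 113 and 10 counts in every library 200. In KO-F2 against Ctrl-F1 spermatozoa DESeq2 called 277, the bias-adjusted fit 5, no filter gave 39, 10 counts in every library 1, the replicate block 362, all 3 groups in 1 model 2, and leaving out a library 35 to 277. In KO-F2 against KO-F1 spermatozoa DESeq2 called 2058, the late spermatogenesis scaling 5189 (46 higher and 5143 lower, against 285 and 27), totals without Rn45s 599 (172 higher and 427 lower), the bias-adjusted fit 1475, no filter 2552, 10 counts in every library 1805, the replicate block 819, thinning 655, all 3 groups in 1 model 198, and leaving out a library 230 to 2898. In Ctrl-F1 spermatozoa against liver 10 counts in every library gave 1987, and leaving out a library 2404 to 8366. Neither labels nor methods tie same-numbered replicates to 1 animal, and their deviations correlated between -0.091 and 0.125 across genes. With the block, Pgk2 and Ldhc were also called in KO-F2 against KO-F1 spermatozoa, and Aldoa was lost against liver.

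The sign turned for these members. In KO-F1 against Ctrl-F1 spermatozoa the late spermatogenesis scaling gave Pgk2 0.070, Aldoart1 0.020, Pgam2 0.057, Ldha 1.53 and Aldoa 1.72. Totals without Rn45s gave Ldha 0.16 and Aldoa 0.40. Aldoa, near 0, was 0.031 by DESeq2, 0.033 by its size factors and after thinning, 0.039 with no filter, 0.081 with 10 counts in every library and 0.016 with all 3 groups. In KO-F2 against Ctrl-F1 spermatozoa the late spermatogenesis scaling gave Gapdhs -0.20 and Ldhc -0.018, and totals without Rn45s Gapdhs -0.071. In KO-F2 against KO-F1 spermatozoa they gave Aldoart1 -0.67, Ldha -1.57 and Aldoa -1.74, and Aldoa -0.10. Against liver thinning gave Pgam1 0.37, and in liver totals without Rn45s gave Ldha -0.041. Leaving out a library moved Ldha in liver between -0.24 and 0.24, in KO-F1 spermatozoa Ldha between -0.64 and 0.19 and Aldoa between -0.22 and 0.20, and in KO-F2 against Ctrl-F1 spermatozoa Gapdhs between -0.21 and 0.47, Pgk2 between -0.057 and 1.05 and Ldhc between -0.11 and 0.78. The cause was not tested. Low counts limit Gapdh in F1 spermatozoa, Pgk2, Ldhc and Pgam2 in liver, and Pgk1 in spermatozoa (19 and 12 counts in Ctrl-F1 and 29 in each KO-F2 library).

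Per kilobase of unique stretches each pair's ratio moves by a fixed amount, so differences between groups stay the same. It was lower for the pairs of Gapdhs, Pgk2, Ldhc and Pgam2 and slightly higher for that of Aldoart1 (mean log2 ratio -1.75 against -1.78 in Ctrl-F1 spermatozoa).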
